A study of Canis lupus familiaris with 12 samples.

Results

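The genes described here are those of ribosome biogenesis together with MYC: 39 named genes in canine peripheral blood mononuclear cells (PBMCs), of which 37 have a row among the 29822 genes counted. They are defined by name, and no measured value of these libraries enters the definition. They were chosen, however, with earlier results of these data known. BOP1 and TSR1 are not analysed here. All 37 passed the filter on low counts, so that each could be tested. DKC1, GNL3, NCL, NOP56, NOP58, PPAN and WDR43, 7 of the 37, hold annotated snoRNA genes within their bounds. By role they are MYC itself, 3 subunits of RNA polymerase I, 3 core proteins of box C/D and 3 of box H/ACA small nucleolar ribonucleoproteins (snoRNPs), 8 abundant nucleolar proteins, 10 factors of the small ribosomal subunit and 9 of the large subunit.

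PBMCs in 4 conditions were sequenced, with 3 libraries each, all as poly(A) RNA. Donors were healthy, specific pathogen-free male beagles. The cells were isolated on a density gradient and harvested 24 h after treatment began. ConA+ALA cells received 0.5 µg/ml concanavalin A (ConA), a lectin that drives T cells to divide, and 1.0 mM 5-aminolevulinic acid (ALA), the precursor of heme. ConA cells received 0.5 µg/ml ConA, ALA cells 1.0 mM ALA, and untreated cells neither agent. The labels number the libraries 1 to 3 in each group. They give no age, and do not state that the numbers stand for different dogs, so that a p-value here reflects only how far these libraries vary.

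Ribosomes are built in the nucleolus. RNA polymerase I copies the ribosomal DNA into a long precursor, snoRNPs guide the chemical modification of its bases and riboses, and many assembly factors cut, fold and pack it with ribosomal proteins into the small and the large subunit. The transcription factor MYC binds DNA as a dimer with MAX and is known, in human and mouse cells, to raise the transcription of many of these genes. Lymphocytes that leave rest to divide are known to enlarge their nucleoli and to make more ribosomes. PBMCs are a mixture of T cells, B cells, NK cells and monocytes, and in such bulk samples fewer cells of a type and less RNA per cell cannot be told apart.

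The libraries held 13390692 to 21517099 exon reads. Mitochondrial transcripts took 3.59 to 4.82% of the exon reads in the 4 libraries numbered 1 and 11.8 to 23.3% in the other libraries, so the numbers differed in this share within every group. The 37 genes took 0.762 to 1.14% of the exon reads with ConA+ALA and 0.812 to 1.35% with ConA. They took 0.343 to 0.398% with ALA and 0.310 to 0.404% in untreated libraries. No ConA-treated library overlapped with one without ConA in this share.

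Levels are given as CPM, exon read counts relative to library sizes scaled by the trimmed mean of M values (TMM), in the order of libraries 1, 2 and 3. Differences are log2 fold changes ± standard error (SE) from edgeR's quasi-likelihood test on all 12 libraries. A gene was said to rise or fall where its Benjamini-Hochberg adjusted p over the 13358 genes tested was under 0.05. Because the numbers 1 to 3 pair the libraries, the fit with the number as a block is given beside the first where the calls differ.

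With ConA alone, 35 of the 37 genes rose against untreated cells and none fell. MYC and HEATR1 were the exceptions. Over all genes tested, 9.93% rose. The median log2 fold change was 1.68 for the 37 genes, against -0.05 for all genes. The summed level of the 37 genes was 11196, 14108 and 9345 CPM with ConA, against 2901, 3602 and 3238 CPM untreated, a ratio of means of 3.56. All 37 were higher in each of the 3 numbers, against 30.6% of all genes. In 36 of the 37 the lowest ConA library lay above the highest untreated one, against 17.3% of all genes, and MYC was the exception.

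Among ConA+ALA cells, 29 of the 37 rose against ALA cells and none fell, against 5.09% of all genes that rose. The median was 1.37 for the 37 genes and -0.07 for all genes. Their summed level was 9514, 11385 and 9384 CPM with ConA+ALA, against 2953, 3847 and 4035 CPM with ALA, a ratio of means of 2.79. The 37 genes, MYC included, were all higher in each number and did not overlap between these groups, against 28.2% and 14.9% of all genes. In HEATR1 and URB2 the lowest ConA+ALA and highest ALA libraries nearly tied, at 183.9 against 182.1 and 91.6 against 91.4 CPM. With the number as a block, 36 genes rose with ConA and 37 with ConA+ALA, when 21.3% and 15.8% of all genes rose.

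Both responses were smaller in the libraries numbered 3. The median log2 ratio of the 37 genes between libraries of one number was 1.79, 1.75 and 1.34 in numbers 1, 2 and 3 for ConA over untreated. It was 1.60, 1.47 and 0.99 for ConA+ALA over ALA.

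**Figure D1:**
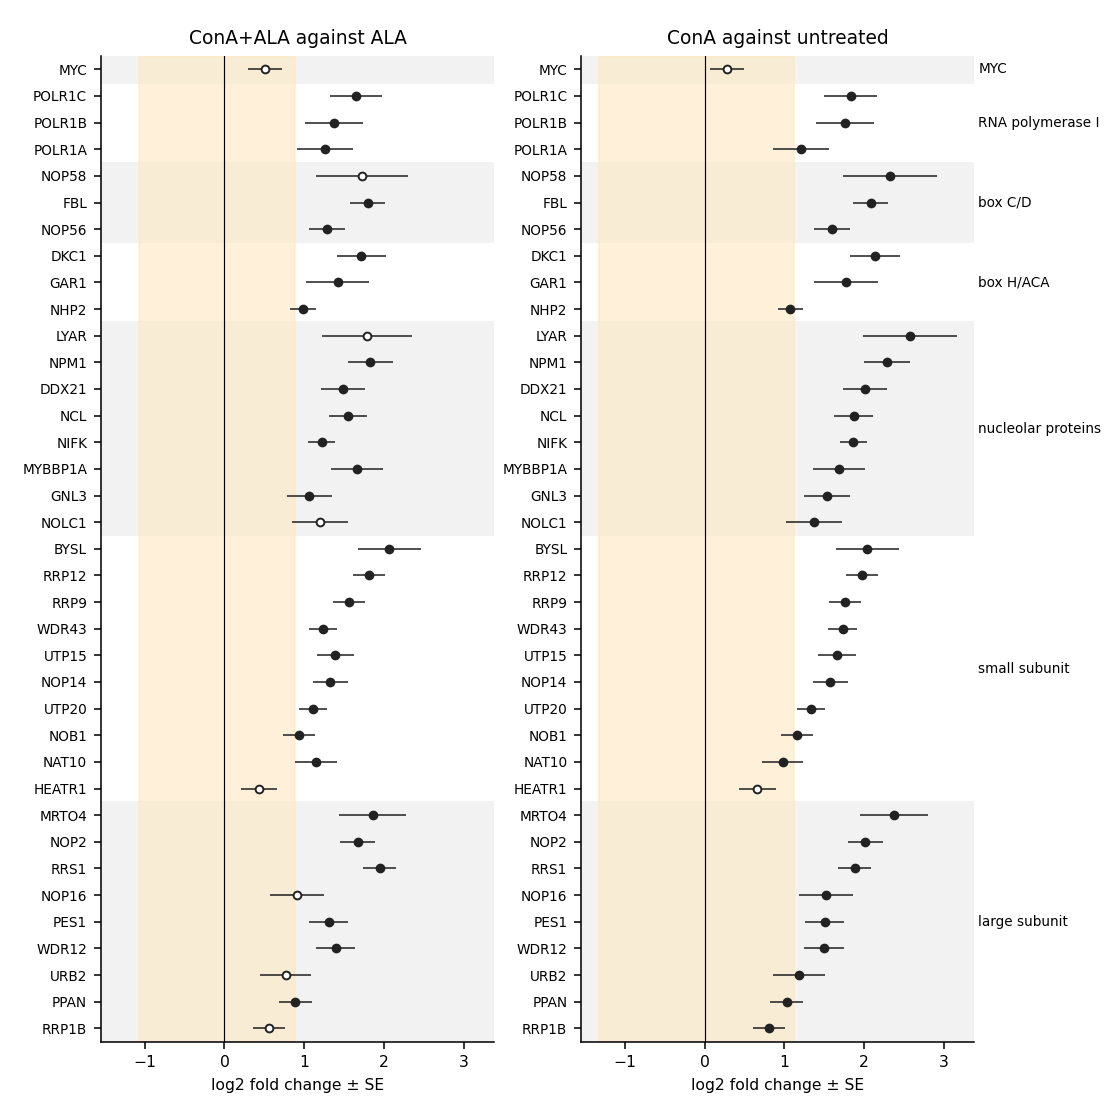
Log2 fold change of each of the 37 genes for ConA+ALA against ALA (left) and ConA against untreated (right). Points are estimates with SE bars, filled where the adjusted p is under 0.05, rows are grouped by role, and the orange band spans the 10th to 90th percentile of all genes tested. MYC and HEATR1 are open in both panels, and the other genes reach up to 2.06 (BYSL, left) and 2.57 (LYAR, right).

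MYC (chromosome 13, 25200577 to 25205309, forward strand, 3 exons) differed little between ConA and untreated cells, and more between ConA+ALA and ALA cells. MYC stood at 218, 167 and 158 CPM with ConA+ALA and 198, 146 and 139.8 CPM with ConA. MYC in the cells without ConA had 139.9, 124 and 118 CPM with ALA and 160.1, 113 and 125 CPM untreated. Library 1 was the highest of its group in all 4 groups. ConA and untreated libraries overlapped, since the untreated library 1 lay above the ConA libraries 2 and 3. The log2 fold change was 0.28 ± 0.22 (adjusted p = 0.406) for ConA against untreated and 0.28 ± 0.12 (adjusted p = 0.0655) with the block, so that MYC did not pass the test in either fit. For ConA+ALA against ALA it was 0.51 ± 0.22 (adjusted p = 0.182), and with the block 0.50 ± 0.12 (adjusted p = 0.00466), which passed.

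The scale matters for MYC. As TPM, the authors' values per transcript length and library, MYC averaged 117 ± 65.6 with ConA and 125 ± 60.04 untreated (SD, n = 3 each), a log2 ratio of -0.10. It averaged 132 ± 63.0 TPM with ConA+ALA and 111 ± 45.7 TPM with ALA, a log2 ratio of 0.25. On that scale the median gene had a log2 ratio of -0.44 between ConA and untreated cells, and -0.34 between ConA+ALA and ALA cells. The 37 genes had a median log2 TPM ratio of 1.33 for ConA over untreated, with 36 of 37 above 0, and 1.11 for ConA+ALA over ALA, with 37 of 37 above 0.

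MYC was already among the more abundant of these transcripts in cells without ConA. By mean TPM it ranked 7 of 37 with ALA and 6 of 37 in untreated cells. Its rank was 11 with ConA+ALA and 12 with ConA. NPM1 and NCL ranked 1 and 2 in all 4 groups. NPM1 averaged 2059 ± 561 TPM with ConA and 558 ± 74.2 TPM untreated.

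**Figure D2:**
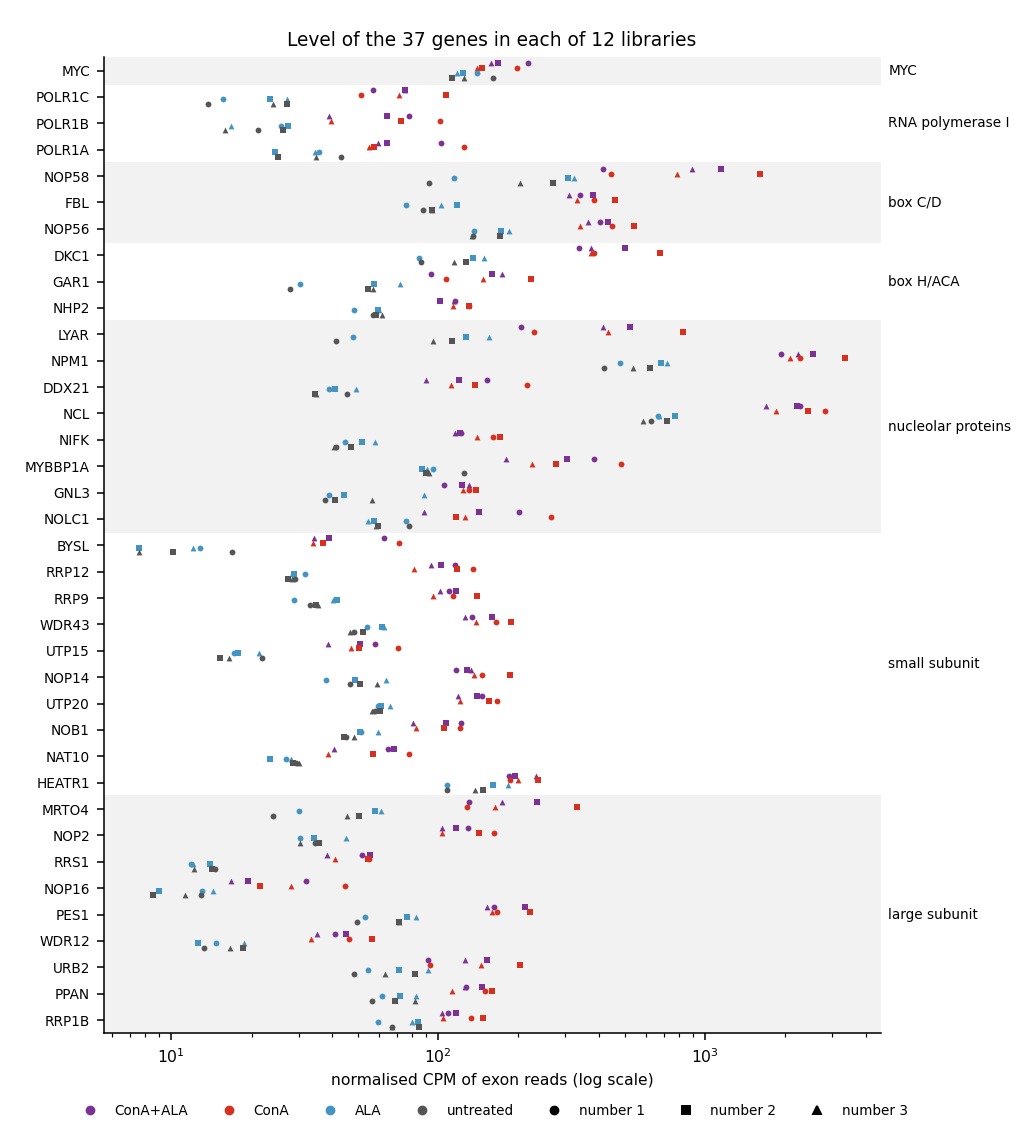
CPM of each of the 37 genes in each of the 12 libraries on a log axis, coloured by group and shaped by library number. For all genes but MYC the ConA+ALA and ConA points lie to the right of the ALA and untreated points, while the 4 groups of MYC lie between 113 and 218 CPM.

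The 3 RNA polymerase I subunits rose in both comparisons. POLR1A (chromosome 17, 39000778 to 39070356, forward strand) and POLR1B (chromosome 17, 36774541 to 36797525, forward strand) form the catalytic centre of the enzyme. POLR1C (chromosome 12, 11978422 to 12008579, forward strand) is also part of RNA polymerase III. POLR1A stood at 103, 64.3 and 59.6 CPM with ConA+ALA and 125, 57.6 and 55.1 CPM with ConA. POLR1A in the cells without ConA had 35.7, 24.5 and 34.6 CPM with ALA and 43.2, 25.2 and 34.96 CPM untreated. Its ConA library 1 was the highest of all 12. POLR1B stood at 77.7, 64.2 and 39.2 CPM with ConA+ALA and 102, 72.5 and 39.8 CPM with ConA. POLR1B in the cells without ConA had 25.9, 27.3 and 16.8 CPM with ALA and 21.1, 26.2 and 15.9 CPM untreated. POLR1C stood at 57.04, 75.3 and 75.2 CPM with ConA+ALA and 51.5, 107 and 71.5 CPM with ConA. POLR1C in the cells without ConA had 15.6, 23.5 and 27.1 CPM with ALA and 13.7, 27.03 and 23.97 CPM untreated. In all 3 genes the ConA-treated libraries lay above those without ConA. With ConA against untreated the log2 fold changes were 1.83 ± 0.33 (adjusted p = 0.0032) for POLR1C, 1.76 ± 0.36 (adjusted p = 0.00653) for POLR1B and 1.20 ± 0.35 (adjusted p = 0.0328) for POLR1A. The values for ConA+ALA against ALA were 1.65 ± 0.33 (adjusted p = 0.0108), 1.37 ± 0.36 (adjusted p = 0.03802) and 1.26 ± 0.35 (adjusted p = 0.0476).

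POLR1A was the least secure of them. In ConA against untreated it lost its call without ConA library 1, untreated library 2 or untreated library 3 (adjusted p up to 0.136). In ConA+ALA against ALA it kept its call in 1 of 12 fits with a library left out, that without ConA library 1 (adjusted p up to 0.172). POLR1B lost its own there without ALA library 1, 2 or 3, ConA+ALA library 1 or 2 or ConA library 2 (up to 0.127). With the block all 3 subunits rose in both comparisons.

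The box C/D snoRNPs guide the methylation of ribose in ribosomal RNA. FBL (chromosome 1, 113632929 to 113643748, forward strand), or fibrillarin, is their methyltransferase, and NOP56 (chromosome 24, 18561408 to 18566719, reverse strand) and NOP58 (chromosome 37, 11255589 to 11287279, forward strand) form their scaffold. FBL stood at 339.8, 379 and 309 CPM with ConA+ALA and 384, 462 and 331 CPM with ConA. FBL in the cells without ConA had 75.5, 118 and 103 CPM with ALA and 87.8, 95.2 and 94.5 CPM untreated. NOP56 stood at 404, 432 and 365 CPM with ConA+ALA and 449, 542 and 341 CPM with ConA. NOP56 in the cells without ConA had 136, 173 and 184 CPM with ALA and 135, 170.5 and 134 CPM untreated. Neither gene overlapped between cells with and without ConA. NOP58 stood at 415, 1152 and 898 CPM with ConA+ALA and 445, 1614 and 783 CPM with ConA. NOP58 in the cells without ConA had 114, 308 and 322 CPM with ALA and 92.8, 269 and 203 CPM untreated. Library 1 was the lowest NOP58 value of each group. With ConA against untreated FBL rose by 2.08 ± 0.22 (adjusted p = 0.000234), NOP58 by 2.33 ± 0.59 (adjusted p = 0.0174) and NOP56 by 1.60 ± 0.23 (adjusted p = 0.000948) on the log2 scale. FBL was called in all 27 alternative fits. NOP58 lost its call without untreated library 1 or ConA library 2 (up to 0.0693). In ConA+ALA against ALA cells FBL rose by 1.80 ± 0.22 (adjusted p = 0.00143) and NOP56 by 1.28 ± 0.22 (adjusted p = 0.00644). NOP58, at 1.73 ± 0.58 (adjusted p = 0.0903), did not pass, but did with the block, at 1.73 ± 0.16 (adjusted p = 3.80e-06).

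The box H/ACA snoRNPs guide the conversion of uridine to pseudouridine. DKC1 (chromosome X, 122838645 to 122850884, forward strand), or dyskerin, is the pseudouridine synthase, and GAR1 and NHP2 are core proteins beside it. DKC1 stood at 338, 501 and 374 CPM with ConA+ALA and 385, 681 and 376 CPM with ConA. DKC1 in the cells without ConA had 84.9, 136 and 149 CPM with ALA and 85.96, 127 and 115 CPM untreated. The ConA library 2 stood highest, and no library with ConA overlapped with one without. DKC1 rose by 2.13 ± 0.31 (adjusted p = 0.00112) with ConA against untreated and by 1.71 ± 0.31 (adjusted p = 0.00734) with ConA+ALA against ALA. GAR1 rose by 1.78 ± 0.40 (adjusted p = 0.0103) and 1.42 ± 0.40 (adjusted p = 0.0479) in the same 2 comparisons, and NHP2 by 1.08 ± 0.16 (adjusted p = 0.00119) and 0.98 ± 0.16 (adjusted p = 0.00458). Against ALA, GAR1 lost its call without ALA library 1 or 2, ConA+ALA library 2 or 3, ConA library 3 or untreated library 2 or 3 (up to 0.149).

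All 8 nucleolar proteins rose with ConA against untreated. NPM1 (chromosome 4, 40756465 to 40770175, reverse strand), or nucleophosmin, is a nucleolar chaperone that takes part in the export of subunits. NCL (chromosome 25, 43330799 to 43384258, reverse strand), or nucleolin, acts in transcription and early processing of ribosomal RNA. NPM1 stood at 1934, 2539 and 2227 CPM with ConA+ALA and 2278, 3358 and 2087 CPM with ConA. NPM1 in the cells without ConA had 482, 684 and 724 CPM with ALA and 419, 622 and 538 CPM untreated. NCL stood at 2265, 2214 and 1695 CPM with ConA+ALA and 2822, 2434 and 1839 CPM with ConA. NCL in the cells without ConA had 665, 769 and 676 CPM with ALA and 629.6, 722 and 588 CPM untreated. Both were the most abundant of the 37 genes in each group, and their libraries with and without ConA did not overlap. NPM1 rose by 2.29 ± 0.29 (adjusted p = 0.000523) with ConA against untreated and by 1.83 ± 0.28 (adjusted p = 0.00363) with ConA+ALA against ALA. NCL rose by 1.87 ± 0.24 (adjusted p = 0.000639) and 1.55 ± 0.24 (adjusted p = 0.00364). Between 59.9 and 84.5% of the NPM1 exon reads were unique to the gene, so its level is uncertain to that extent. On unique reads alone its log2 fold change with ConA was 2.44 (adjusted p = 0.00124).

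LYAR (chromosome 3, 69710735 to 69724177, reverse strand), a nucleolar protein tied to cell growth, had the highest fold change of the 37 with ConA. LYAR stood at 204, 522 and 414 CPM with ConA+ALA and 229, 829 and 432 CPM with ConA. LYAR in the cells without ConA had 47.9, 128 and 155 CPM with ALA and 41.5, 113 and 95.9 CPM untreated. Library 1 was the lowest of each group and ConA library 2 the highest of all. It rose by 2.57 ± 0.59 (adjusted p = 0.0108) with ConA against untreated. At 1.79 ± 0.57 (adjusted p = 0.0777) with ConA+ALA against ALA it did not pass, but did with the block, at 1.83 ± 0.18 (adjusted p = 6.79e-06). DDX21, an RNA helicase of ribosomal RNA transcription and processing, rose by 2.01 ± 0.28 (adjusted p = 0.000815) with ConA. NIFK, which binds the proliferation antigen Ki-67 and acts in precursor processing, rose by 1.86 ± 0.17 (adjusted p = 0.000141) and was called in all 27 alternative fits. MYBBP1A, a nucleolar protein that acts in precursor transcription and processing, rose by 1.68 ± 0.33 (adjusted p = 0.00464), and GNL3, or nucleostemin, by 1.54 ± 0.29 (adjusted p = 0.00404). NOLC1, a chaperone of snoRNPs, rose by 1.37 ± 0.35 (adjusted p = 0.0192), and lost that call without ConA library 1, untreated library 2 or untreated library 3 (up to 0.0737).

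Of the 8 nucleolar proteins, 6 rose with ConA+ALA against ALA. DDX21 rose by 1.48 ± 0.27, NIFK by 1.22 ± 0.17, MYBBP1A by 1.66 ± 0.33 and GNL3 by 1.07 ± 0.29. GNL3 lost that call without ALA library 1 or 2, any ConA+ALA library, ConA library 2 or 3 or untreated library 2 (up to 0.159). MYBBP1A lost it without ALA library 2 (0.0521). NOLC1 was at 1.20 ± 0.35 (adjusted p = 0.0581), and 1.15 ± 0.18 (adjusted p = 0.000213) with the block.

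With ConA, 9 of the 10 small subunit factors rose, by 0.98 to 2.04 on the log2 scale. BYSL (chromosome 12, 10581217 to 10591923, forward strand), or bystin, acts late in the maturation of the small subunit. BYSL had 62.7, 39.04 and 34.4 CPM with ConA+ALA and 71.6, 37.2 and 34.04 CPM with ConA. BYSL in the cells without ConA had 12.8, 7.59 and 12.1 CPM with ALA and 16.9, 10.2 and 7.56 CPM untreated. BYSL was, with NOP16, the lowest of these genes in CPM in cells without ConA, and did not overlap between cells with and without it. It rose by 2.04 ± 0.39 (adjusted p = 0.00439) with ConA against untreated and by 2.06 ± 0.39 (adjusted p = 0.00904) with ConA+ALA against ALA, where it had the highest fold change of the 37. On total gene reads, which include the reads of the intron column, its log2 fold change with ConA was 0.89, the lowest of its 27 alternative values.

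RRP12, which takes part in subunit export, rose by 1.98 ± 0.20 (adjusted p = 0.000206) with ConA and by 1.81 ± 0.20 (adjusted p = 0.000824) with ConA+ALA against ALA. RRP9, a protein of the snoRNP that guides early cleavage, rose by 1.76 ± 0.20 (adjusted p = 0.000338) and 1.56 ± 0.20 (adjusted p = 0.00179). WDR43 and UTP15 belong to a complex known in yeast and human cells to act in both transcription and processing of the precursor. WDR43 rose by 1.73 ± 0.18 (adjusted p = 0.00022) and 1.24 ± 0.18 (adjusted p = 0.00282), and UTP15 by 1.66 ± 0.24 (adjusted p = 0.000989) and 1.39 ± 0.24 (adjusted p = 0.00558). The processome proteins NOP14 and UTP20 rose by 1.58 ± 0.22 and 1.34 ± 0.17 with ConA and by 1.33 ± 0.22 and 1.11 ± 0.17 with ConA+ALA against ALA. NOB1, the endonuclease of the last cleavage, rose by 1.16 ± 0.20 and 0.93 ± 0.20.

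NAT10 (chromosome 18, 33655311 to 33689923, reverse strand), which acetylates cytidines of small subunit RNA, had the smallest rise of this group with ConA. NAT10 stood at 64.7, 68.1 and 40.7 CPM with ConA+ALA and 77.5, 57.1 and 38.8 CPM with ConA. NAT10 in the cells without ConA had 26.9, 23.4 and 28.1 CPM with ALA and 29.3, 28.6 and 30.1 CPM untreated. Groups with and without ConA did not overlap. It rose by 0.98 ± 0.26 (adjusted p = 0.0222) with ConA and 1.15 ± 0.26 (adjusted p = 0.0208) with ConA+ALA against ALA. The ConA call held in 7 of 12 fits with a library left out, and was lost without untreated library 1, 2 or 3 or ConA library 1 or 2 (up to 0.0869).

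HEATR1 (chromosome 4, 3501571 to 3547100, forward strand), of the same complex as WDR43 and UTP15, was the other gene beside MYC that did not pass. HEATR1 stood at 184, 194 and 233 CPM with ConA+ALA and 187, 237 and 199 CPM with ConA. HEATR1 in the cells without ConA had 108, 161 and 182 CPM with ALA and 108, 148 and 138 CPM untreated. Its ConA libraries lay above the untreated ones. Its lowest ConA+ALA library, at 184 CPM, was just above its highest ALA library, at 182 CPM. The log2 fold change was 0.66 ± 0.23 (adjusted p = 0.06401) with ConA and 0.44 ± 0.23 (adjusted p = 0.281) with ConA+ALA against ALA. With the block it passed in both, at 0.67 ± 0.14 (adjusted p = 0.00118) and 0.46 ± 0.14 (adjusted p = 0.0198). HEATR1 overlaps LGALS8 in the annotation, and whether counting used strand is not given in the sources used here, so reads of the pair may be mixed.

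All 9 large subunit factors rose with ConA, and 6 of 9 with ConA+ALA against ALA. MRTO4 (chromosome 2, 79360970 to 79366935, reverse strand), a factor related to the stalk protein of the large subunit, led them. MRTO4 stood at 130.01, 234 and 174 CPM with ConA+ALA and 129, 332 and 163 CPM with ConA. MRTO4 in the cells without ConA had 30.00, 57.8 and 60.9 CPM with ALA and 24.1, 50.5 and 45.7 CPM untreated. The groups with and without ConA stood well apart. It rose by 2.37 ± 0.43 (adjusted p = 0.00317) with ConA and by 1.86 ± 0.42 (adjusted p = 0.0202) with ConA+ALA against ALA. The second call was lost without ALA library 1, ALA library 2 or ConA+ALA library 2 (up to 0.0772). RRS1 (chromosome 29, 16016189 to 16017286, forward strand), which brings the small 5S ribosomal RNA particle to the large subunit, was more even. RRS1 had 52.04, 55.7 and 38.4 CPM with ConA+ALA and 55.2, 54.5 and 41.1 CPM with ConA. RRS1 in the cells without ConA had 11.9, 13.9 and 12.1 CPM with ALA and 14.5, 14.2 and 12.2 CPM untreated. Its 3 libraries within each group lay close together. RRS1 rose by 1.88 ± 0.21 (adjusted p = 0.00029) and 1.95 ± 0.21 (adjusted p = 0.000694).

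NOP2, a methyltransferase of large subunit RNA, rose by 2.01 ± 0.22 (adjusted p = 0.000284) with ConA and 1.67 ± 0.22 (adjusted p = 0.00198) with ConA+ALA against ALA. PES1 and WDR12, partners of BOP1 in 1 complex, rose by 1.51 ± 0.24 and 1.498 ± 0.25 with ConA and by 1.31 ± 0.24 and 1.396 ± 0.25 with ConA+ALA against ALA. PPAN, an assembly factor of the large subunit precursor, rose by 1.03 ± 0.21 (adjusted p = 0.00545) and 0.89 ± 0.21 (adjusted p = 0.0223). NOP16, another assembly factor, rose by 1.53 ± 0.34 (adjusted p = 0.00953) with ConA and was at 0.91 ± 0.34 (adjusted p = 0.125) with ConA+ALA against ALA. URB2, known in yeast for early assembly of the large subunit, rose by 1.18 ± 0.32 (adjusted p = 0.0241) with ConA, and lost that call without untreated library 1 or 3 or ConA library 2 or 3 (up to 0.0962). URB2 was at 0.77 ± 0.32 (adjusted p = 0.1705) with ConA+ALA against ALA.

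RRP1B (chromosome 31, 37652863 to 37667895, forward strand) had the smallest rise of the 35 genes called with ConA. RRP1B stood at 109, 116 and 104 CPM with ConA+ALA and 132, 147 and 104 CPM with ConA. RRP1B in the cells without ConA had 59.4, 84.1 and 80.1 CPM with ALA and 67.3, 85.2 and 67.2 CPM untreated. Its groups with and without ConA did not overlap. It rose by 0.81 ± 0.20 (adjusted p = 0.0162) with ConA, and lost that call without untreated library 1, ConA library 2 or untreated library 3 (up to 0.05999). RRP1B was at 0.56 ± 0.20 (adjusted p = 0.114) with ConA+ALA against ALA. With the block NOP16, URB2 and RRP1B passed in that comparison too, with adjusted p of 0.004599, 0.00166 and 0.00657.

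Leaving out libraries changed the number of calls most when all those of number 2 were left out. In ConA against untreated 29 of the 35 rises held whichever library was left out, and 20 of the 29 in ConA+ALA against ALA. Against ALA, NAT10 and NOB1 lost their calls without ALA library 1 or 2 or ConA+ALA library 1 or 2 (up to 0.0922 and 0.0759), and PPAN without these or ConA+ALA library 3 (up to 0.0945). Without the 4 libraries numbered 2, only FBL, NIFK and WDR43 were called with ConA and no gene of the 37 with ConA+ALA against ALA, when 42 and 0 of all genes rose in the 2 comparisons. With the block and the same libraries left out, 36 genes rose in each comparison. The shares of all genes that rose in that fit are not given here. With the block on all 12 libraries they were 21.3% and 15.8%. Without the libraries numbered 3, 24 rose with ConA and 7 with ConA+ALA against ALA, when 592 and 100 of all genes rose.

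**Figure D3:**
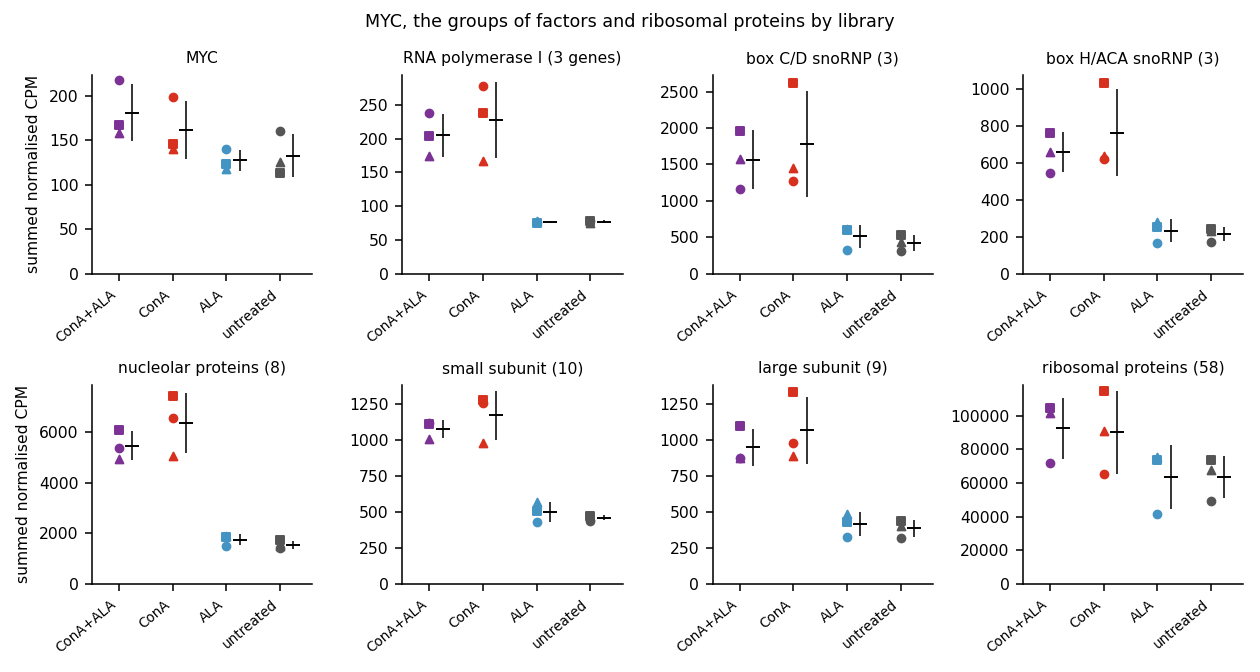
Summed CPM of MYC, of each group of factors and of 58 cytosolic ribosomal proteins in each library, shaped by number as in the plot of single genes, with the mean and SD of 3 libraries beside the points. The factor groups are higher in the ConA+ALA and ConA libraries than in the ALA and untreated ones without overlap, from 166 to 279 against 74.9 to 78.5 CPM for RNA polymerase I, while MYC overlaps between ConA and untreated.

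The summed rise ran highest for box C/D and nucleolar proteins. Box C/D proteins summed to 1278, 2618 and 1455 CPM with ConA and 316, 535 and 432 CPM untreated, a ratio of means of 4.17. Nucleolar proteins had a ratio of 4.11, box H/ACA proteins 3.55, RNA polymerase I subunits 2.95, large subunit factors 2.77 and small subunit factors 2.54. For ConA+ALA over ALA the same ratios were 3.06, 3.12, 2.83, 2.66, 2.28 and 2.15. MYC had ratios of 1.22 with ConA over untreated and 1.42 with ConA+ALA over ALA. Differences between groups of factors were not tested.

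Other genes of the pathway, from lists written from general knowledge with earlier results of these data known, also rose with ConA. Of 37 other small subunit factors 28 rose and none fell, with a median of 1.11. The smallest unadjusted p values were those of UTP4 2.03 ± 0.26 (0.000632), WDR75 1.64 ± 0.22 (0.000771) and LTV1 1.396 ± 0.20 (0.000974), given as log2 fold change ± SE with the adjusted p in brackets. Of 44 other large subunit factors 28 rose, with DDX18 1.94 ± 0.24 (0.000511), FTSJ3 1.78 ± 0.24 (0.00078) and NIP7 1.32 ± 0.18 (0.000815) in front, and 1 fell. That was NOP53, known in yeast to recruit the RNA exosome to the large subunit precursor, at -0.87 ± 0.23 (0.02104), whose call was lost in 3 of 12 fits with a library left out (up to 0.0754). Of 12 other RNA polymerase I factors 3 rose: CD3EAP 2.32 ± 0.45 (0.00452), RRN3 1.35 ± 0.27 (0.005297) and TWISTNB 1.47 ± 0.32 (0.00849). CD3EAP and TWISTNB are subunits of the enzyme, and RRN3 is its initiation factor. With the block 33 of 37, 38 of 44 and 7 of 12 genes of these 3 lists rose, when 21.3% of all genes rose, and NOP53 again fell.

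Of 9 other snoRNP factors 6 rose, with RUVBL1 1.59 ± 0.18 (0.000327), RUVBL2 1.76 ± 0.21 (0.000453) and ZNHIT6 1.36 ± 0.25 (0.00336), which act in snoRNP assembly. Of 13 subunits and partners of the RNA exosome, which trims the precursor from its end, 10 rose, with EXOSC3 1.59 ± 0.23 (0.00111), EXOSC4 1.05 ± 0.20 (0.00404) and EXOSC1 0.97 ± 0.19 (0.00424). The medians were 1.36 and 0.93, and with the block 7 of 9 and 11 of 13 rose. With ConA+ALA against ALA 16 of 37, 19 of 44, 3 of 12, 3 of 9 and 6 of 13 genes of these 5 lists rose and none fell, when 5.09% of all genes rose. With the block 33, 38, 7, 6 and 10 of them rose, when 15.8% of all genes did, and NOP53 fell, at -0.33 ± 0.11 (adjusted p = 0.0314).

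Calls on the ribosomal proteins, which this pathway packs into the subunits, depended on the block. Of 58 cytosolic ribosomal protein genes 5 rose with ConA and none fell, a share near the 9.93% of all genes that rose. The 58 genes had a median log2 fold change of 0.49. The 5 were led by RPL4 0.83 ± 0.23 (0.0288), RPSA 0.74 ± 0.22 (0.0346) and RPL15 0.76 ± 0.23 (0.0355), each lost in at least 4 of 12 fits with a library left out. With the block 38 of 58 rose, when 21.3% of all genes did. Their summed level was 65358, 114559 and 90897 CPM with ConA, against 49389.9, 73679.8 and 67462 CPM untreated, so that ConA library 1 lay below untreated libraries 2 and 3. On the TPM scale their median log2 ratio for ConA over untreated was 0.037, against -0.44 for all genes. Against ALA 1 of 58 rose with ConA+ALA (RPSA, at 0.78 ± 0.22, adjusted p = 0.0476), when 5.09% of all genes rose. With the block 49 did, against 15.8% of all genes.

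Of 15 other genes that MYC is known to activate in human and mouse cells, 12 rose with ConA and none fell, when 9.93% of all genes rose. Their median was 1.66. They included NME1 2.69 ± 0.26 (0.000147), CDK4 2.06 ± 0.23 (0.000279) and ATIC 1.78 ± 0.20 (0.000358). NME1 makes nucleoside triphosphates, CDK4 is a kinase of the G1 phase, and ATIC makes purines. In ConA+ALA against ALA cells 9 of 15 rose, when 5.09% of all genes did. With the block all 15 rose in both comparisons. All 10 genes of DNA replication in S phase rose with ConA, with MCM6 2.42 ± 0.22 (0.000138), TYMS 2.08 ± 0.22 (0.000238) and RFC4 2.07 ± 0.23 (0.000313), and 8 of 10 with ConA+ALA against ALA, or 10 with the block.

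No gene of the MYC and MAX network passed edgeR's test without the block. In ConA against untreated that was 0 of 10 tested genes, and 3 had an unadjusted p under 0.05. DESeq2 called MAX higher (adjusted p = 0.02296) and MXD4 lower (adjusted p = 0.04297). MAX, the partner of MYC on DNA, was at 0.48 ± 0.18 (0.0764). MLX and MLXIP, a related pair that binds together, were at 0.37 ± 0.23 (0.309) and -0.24 ± 0.44 (0.758). The repressors that compete with MYC for MAX were at -0.96 ± 0.37 (0.0926) for MNT, -0.95 ± 0.33 (0.0683) for MXD4, -0.79 ± 0.51 (0.3201) for MXD3, -0.74 ± 0.44 (0.267) for MXD1 and 0.0052 ± 0.59 (0.996) for MXI1. MYCL was at -0.48 ± 0.66 (0.669) and MGA at -0.42 ± 0.21 (0.207). With the block MAX and MLX rose and MNT and MXD4 fell, with adjusted p of 0.0124, 0.0389, 0.00749 and 0.00179. These calls are near the share of all genes, of which 21.3% rose and 21.2% fell with the block. Nor did any of the 10 pass with ConA+ALA against ALA in edgeR without the block or in DESeq2. With the block MNT and MXD4 fell in that comparison, when 14.3% of all genes fell.

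**Figure D4:**
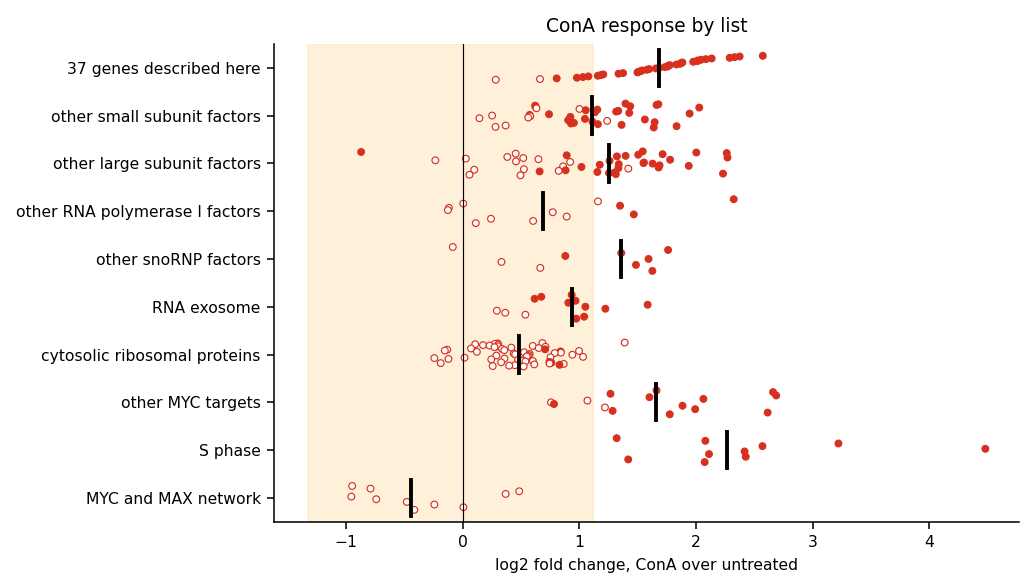
Log2 fold change of ConA over untreated for each tested gene of each list, filled where the adjusted p is under 0.05, with a bar at the list's median and a band over the 10th to 90th percentile of all genes tested. The 37 genes have a median of 1.68, the other MYC targets of 1.66, the ribosomal proteins of 0.49 and the MYC and MAX network of -0.45.

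Markers of blood cell types also differed with ConA. Monocyte markers summed to 118 to 388 CPM in ConA against 460.05 to 874 CPM in untreated libraries, and neutrophil markers to 74.8 to 155 CPM in ConA against 203 to 431 CPM in untreated libraries. Neither overlapped. T cell markers summed to 717 to 1258 CPM in ConA against 1048 to 1756 CPM in untreated libraries, B cell markers to 1375 to 2377 CPM in ConA against 1486 to 2408 CPM in untreated libraries and NK cell markers to 32.7 to 71.7 CPM in ConA against 57.2 to 124 CPM in untreated libraries. Red cell markers summed to 22.4 to 104 CPM in ConA against 99.3 to 177 CPM in untreated libraries and platelet markers to 5.58 to 24.4 CPM in ConA against 15.4 to 72.5 CPM in untreated libraries. With ConA 2 of 8 T cell, 2 of 8 B cell, 2 of 5 NK cell, 2 of 8 monocyte, 3 of 5 neutrophil and 1 of 6 red cell markers fell, none of 3 platelet markers did, and none of all these rose, when 8.57% of all genes fell. With the block 5 of 8 T cell, 6 of 8 B cell, 3 of 5 NK cell, 7 of 8 monocyte, 3 of 5 neutrophil and 3 of 6 red cell markers fell, when 21.2% of all genes did. No marker was at 0 in all 12 libraries. Monocyte markers summed to 133 to 409.9 CPM in ConA+ALA against 346 to 1576 CPM in ALA libraries, and neutrophil markers to 657 to 2408 CPM in ConA+ALA against 198 to 2342 CPM in ALA libraries, both with overlap. In this comparison CD5, a T cell marker, fell by 0.78 ± 0.19 (adjusted p = 0.0302) on the log2 scale, and CSF3R, a neutrophil marker, by 2.06 ± 0.49 (adjusted p = 0.0241), when 3.03% of all genes fell. DESeq2 called 3 of 8 monocyte markers lower. With the block 6 monocyte, 3 T cell, 3 B cell and 2 neutrophil markers fell and 1 B cell and 1 NK cell marker rose, when 14.3% of all genes fell. The part of these cell types in the rise of the 37 genes was not tested.

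ALA made no difference that passed the test for any of the 37 genes. With ALA against untreated none was called and none had an unadjusted p under 0.05, when 0 of all 13358 genes were called and 155 had an unadjusted p under 0.05. DESeq2 called 4 of all genes and none of the 37, and with the block 6 of all genes (0.0449%) and none of the 37. The median log2 fold change of the 37 was 0.12, against -0.000108 for all genes. Of the 37 genes 27 were above 0, when 6671 of all 13358 genes were. The median was 0.014 without ALA library 3 and 0.23 without ALA library 1, and without all libraries numbered 3 it was 0.034, with 22 of 37 above 0. On the TPM scale 18 of 37 were above 0, and their median log2 ratio was -0.0085, against -0.087 for all genes. In all 3 numbers 16 genes were higher and 5 lower with ALA, against 14.8% and 15.9% of all genes.

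The highest values were 0.40 ± 0.55 for LYAR, 0.40 ± 0.56 for NOP58 and 0.34 ± 0.29 for GNL3. The lowest were -0.13 ± 0.35 for POLR1A, -0.17 ± 0.26 for NAT10 and -0.17 ± 0.32 for MYBBP1A. GNL3 stood at 105, 122 and 131 CPM with ConA+ALA and 130.3, 139 and 124 CPM with ConA. GNL3 in the cells without ConA had 39.02, 44.2 and 88.3 CPM with ALA and 37.6, 41.2 and 56.7 CPM untreated. The ALA library 3 stood above the other ALA libraries. MYBBP1A stood at 383, 303 and 179 CPM with ConA+ALA and 486, 277 and 224 CPM with ConA. MYBBP1A in the cells without ConA had 95.7, 86.8 and 90.7 CPM with ALA and 125, 89.7 and 92.7 CPM untreated. ALA and untreated libraries of both genes overlapped. MYC was at -0.062 ± 0.22.

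With ConA+ALA against ConA, again none of the 37 was called and 0 of all genes, and 1 of the 37 and 445 of all genes had an unadjusted p under 0.05. DESeq2 called 49 of all genes and the block 74 (0.554%), and neither called any of the 37. The median was -0.19, against -0.03 for all genes, and 3 of 37 were above 0, when 6158 of all 13358 genes were. The median was -0.060 without ConA library 2 and -0.31 without ConA library 3, and without all libraries numbered 2 it was -0.11, with 7 of 37 above 0. Their summed level was 9514, 11385 and 9384 CPM with ConA+ALA and 11196, 14108 and 9345 CPM with ConA, which overlapped. In all 3 numbers 14 genes were lower and 1 higher with ConA+ALA, against 18.1% and 16.2% of all genes.

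The highest values were 0.17 ± 0.22 for MYC, 0.0052 ± 0.20 for NOB1 and 0.0006 ± 0.26 for NAT10. NOB1 stood at 122, 107 and 80.6 CPM with ConA+ALA and 121, 105 and 82.5 CPM with ConA. NOB1 in the cells without ConA had 51.6, 50.8 and 59.5 CPM with ALA and 45.2, 44.4 and 48.5 CPM untreated. ConA+ALA and ConA libraries of NOB1 overlapped. The lowest were -0.47 ± 0.33 for NOP16, -0.39 ± 0.17 for NIFK and -0.39 ± 0.55 for LYAR. NIFK stood at 122, 120.5 and 116 CPM with ConA+ALA and 160.3, 171 and 139 CPM with ConA. NIFK in the cells without ConA had 44.7, 51.7 and 57.8 CPM with ALA and 41.4, 47.1 and 40.9 CPM untreated. The 3 ConA+ALA libraries of NIFK lay below the 3 ConA libraries. NIFK had an unadjusted p of 0.0348 and an adjusted p of 1, and with the block 0.00813 and 0.254. NOP16 had 31.8, 19.4 and 16.7 CPM with ConA+ALA and 44.7, 21.5 and 28.1 CPM with ConA. NOP16 in the cells without ConA had 13.03, 8.96 and 14.3 CPM with ALA and 12.96, 8.53 and 11.2 CPM untreated. NOP16 was lower with ConA+ALA than with ConA in each number, although its groups overlapped. Neutrophil markers summed to 657 to 2408 CPM in ConA+ALA against 74.8 to 155 CPM in ConA libraries, with no overlap, and 1 of 5 rose with the block. Their log2 fold changes ran from 0.17 to 4.22, with a median of 0.99, and DESeq2 called none of them. Of 8 monocyte markers 1 rose with the block and in DESeq2. Monocyte sums overlapped, at 133 to 410 CPM in ConA+ALA against 118 to 388 CPM in ConA libraries. Their part in these values was not tested.

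**Figure D5:**
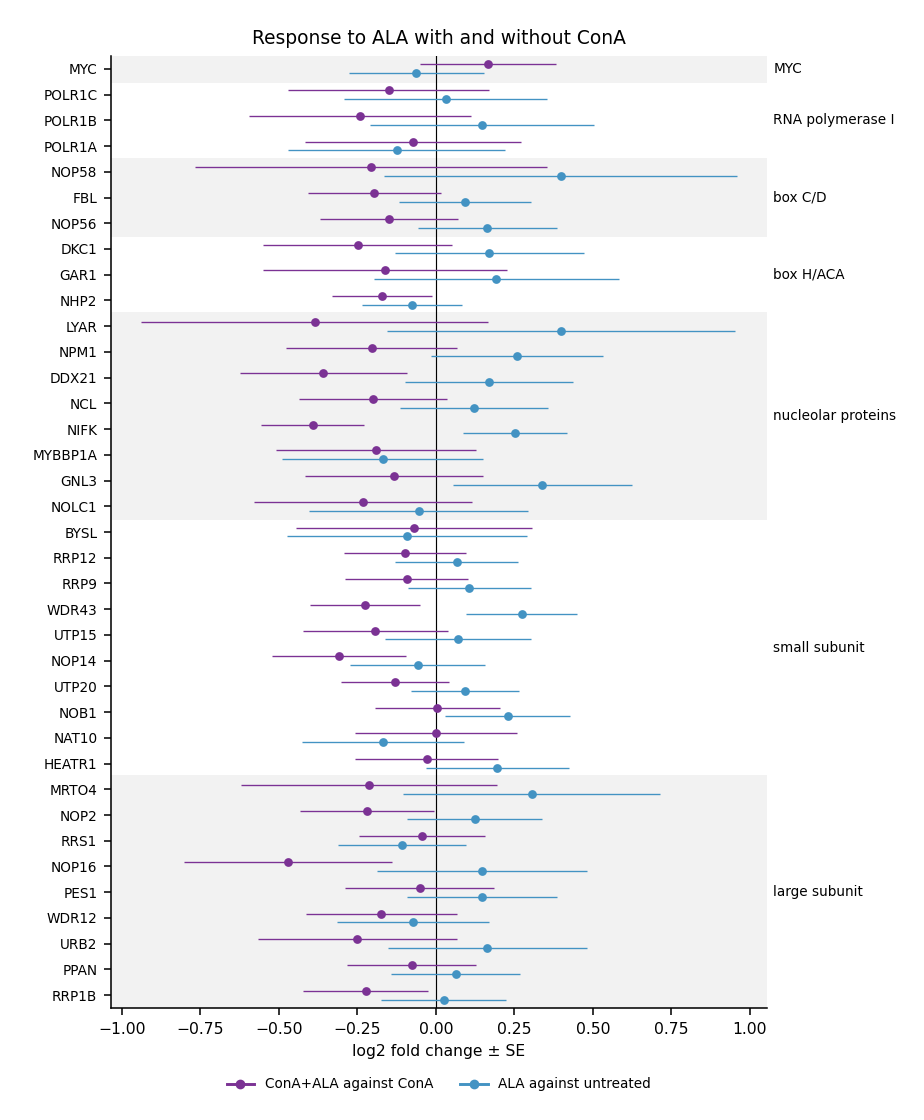
Log2 fold change with SE of each of the 37 genes for ConA+ALA against ConA and for ALA against untreated. Most ConA+ALA points lie below 0 (34 of 37) and most ALA points above 0 (27 of 37), with bars that mostly reach 0 and no gene past the threshold. Of all 13358 genes tested, 6158 were above 0 for ConA+ALA against ConA and 6671 for ALA against untreated.

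The response to ALA with ConA minus that without ConA was also tested. None of the 37 and 0 of all genes were called, and 1 of the 37 and 222 of all genes had an unadjusted p under 0.05. DESeq2 called 4 of all genes. The median of the 37 was -0.25, against -0.02 for all genes, and 32 of 37 were below 0. With one library left out the median ran from -0.38, without ConA library 3 or ALA library 1, to -0.13, without ConA library 2, and was -0.16 without ALA library 3. The lowest values were -0.79 ± 0.78 for LYAR, -0.64 ± 0.23 for NIFK (unadjusted p = 0.0173, adjusted p = 1) and -0.62 ± 0.47 for NOP16. The highest were 0.23 ± 0.31 for MYC, 0.17 ± 0.37 for NAT10 and 0.063 ± 0.29 for RRS1. LYAR, NCL, NIFK, NOP16, PES1, POLR1B, UTP20 and WDR43 were higher with ALA in 3 of 3 numbers without ConA and lower in 3 of 3 with ConA. None of these 8 differences passed the test, and the share of all genes with this pattern was not computed.

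No gene of the pathway lists was called in the 2 ALA comparisons or in their difference. S phase genes had a median of -0.48 with ConA+ALA against ConA, all 10 below 0. Of these 10, 2 had an unadjusted p under 0.05, when 445 of all 13358 genes did. With the block 7 did, when 1311 of all genes did, and none was called (lowest adjusted p = 0.159). Ribosomal protein genes had a median of 0.06, with 45 of 58 above 0.

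The deposited tables also hold a count of intron reads, and introns are present in RNA not yet spliced. This count is kept apart from exon reads, over 15305 genes. With ConA against untreated 16 of 37 genes rose in intron reads and none fell, against 4.16% of all genes that rose. With the block 31 rose, against 16.5% of all genes. The median was 1.36, against -0.02 for all genes. With ConA+ALA against ALA 9 of 37 rose, against 1.04% of all genes, with a median of 1.05. With the block 30 rose, against 10.6% of all genes.

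Of the 8 nucleolar proteins 7 rose in intron reads with ConA, and all 8 with the block. With the block so did 8 of 9 large subunit factors, 7 of 10 small subunit factors, 3 of 3 RNA polymerase I subunits, 3 of 3 box C/D proteins and 2 of 3 box H/ACA proteins. The 9 large subunit factors include RRS1, which has 1 exon and so no intron. DDX21 had 61.3, 51.3 and 37.9 intron CPM with ConA, against 7.54, 8.34 and 8.43 untreated, a log2 fold change of 2.63 ± 0.28 (adjusted p = 0.000512). NCL had 764, 829 and 537 intron CPM with ConA, against 191, 219.5 and 174 untreated, or 1.87 ± 0.22 (adjusted p = 0.000968). NPM1 had 471, 367 and 212 intron CPM with ConA, against 87.6, 106 and 73.6 untreated, or 1.97 ± 0.32 (adjusted p = 0.00461). These 3 genes did not overlap between the groups. MRTO4 rose by 2.19 ± 0.30 (adjusted p = 0.00167) and MYBBP1A by 2.19 ± 0.27 (adjusted p = 0.00114).

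MYC had 182, 76.7 and 97.6 intron CPM with ConA, against 116, 72.2 and 99.1 untreated, a log2 fold change of 0.31 ± 0.38 (adjusted p = 0.732) that turned negative, to -0.13, without ConA library 1. With ConA+ALA against ALA it was 0.55 ± 0.38 (adjusted p = 0.612), and with the block 0.56 ± 0.15 (adjusted p = 0.0117), which passed. HEATR1 was at 0.24 ± 0.29 (adjusted p = 0.727). BYSL and NHP2 went the other way from their exon reads without passing the test, at -0.73 ± 0.48 (adjusted p = 0.438) and -0.38 ± 0.28 (adjusted p = 0.511). BYSL had 37.8, 26.8 and 15.7 intron CPM with ConA, against 34.05, 66.3 and 33.3 untreated, and these overlapped. RRS1, whose 1 exon spans the whole gene of 1098 bases, also has reads in the intron column. Its log2 fold change there with ConA was 1.82, near the 1.88 of its exon reads, and the counts above include it. This column thus does not hold intron reads alone, and what else it holds is not given in the sources used here. NHP2 also overlaps RMND5B, POLR1C overlaps XPO5, GNL3 overlaps SPCS1 and NOB1 overlaps WWP2. LYAR overlaps ZBTB49 and MYBBP1A overlaps SPNS3, so reads of these pairs may be mixed too.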

How the data were processed

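Poly(A) RNA of 12 PBMC cultures was sequenced (75 bp, paired ends), per the labels' protocols. CanFam3.1 and bcl2fastq are named in the submitters' processing notes. Aligner, counting tool and use of strand: not given in the sources used here. Per the file headers, the deposited tables give, for each gene, counts of reads in exons (total and unique), in introns and in the whole gene. They also give TPM and RPKM computed by the authors, and the deposited fraction columns (shares of reads that are unique or in introns) were not used. RPKM values were not used. TPM served to compare levels between genes and, as another scale, between conditions. Coordinates are those of the files, on CanFam3.1.

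Groups and numbers come from the titles. The 37 genes, the lists and the tests were chosen with earlier results of these data known. The main test, on total exon counts, was edgeR's robust quasi-likelihood F-test (edgeR 4.0.16, R 4.3.3), with TMM, filterByExpr at a minimum count of 10 and 4 group means in 1 model. P-values were adjusted by Benjamini-Hochberg over the 13358 genes kept, or 15305 for intron reads, and the call was an adjusted p under 0.05. The intron fit for ConA+ALA against ALA was added after seeing the data. Only the main edgeR fit and DESeq2, for ConA against untreated, were tested on simulated data. The simulated libraries varied less than the main fit estimated for these and had no effect of the number. The fits with the block, on intron reads and for the other comparisons were not tested in this way. Library totals of 13390692 to 21517099 exon reads set the precision.

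Deviations from the group means correlated at 0.376 to 0.748 in the 18 pairs that share a number and at -0.498 to 0.206 in the 36 others. The numbers therefore pair the samples, although the labels do not state what they stand for. The biological coefficient of variation was 0.422 without the block and 0.217 with it.

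Levels in every library are given for MYC, the RNA polymerase I subunits, FBL, NOP56, NOP58, DKC1, NCL and NPM1 and for the 3 highest and 3 lowest fold changes of each comparison. Of each list, up to 3 called genes with the smallest unadjusted p in each direction are named, and the whole MYC and MAX network in ConA against untreated. Other genes were named after their values were seen. Alternatives were the block, DESeq2 1.42.0, other size factors (RLE), other filters, unique exon reads, no mitochondrial genes, the compared groups only, and libraries left out. Total gene reads, and the block with a number left out, were added after seeing the data.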

Additional observations from a re-analysis of the deposited data

How the results depend on the processing

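With the replicate block, the count of the 37 genes that rose was 36 for ConA against untreated and 37 for ConA+ALA against ALA, and 31 in intron reads for ConA, where 16 rose without it. On exon reads the block changed no call on the 37 genes other than those named above. Without the libraries numbered 2 in all groups the counts were 3 with ConA and 0 with ConA+ALA against ALA, and without those numbered 3 they were 24 and 7. Of all genes 42 and 0 rose without number 2, and 592 and 100 without number 3. Fewer samples enter these fits. With one library left out, 30 to 36 of the 37 rose with ConA, 20 to 30 with ConA+ALA against ALA and 12 to 17 in intron reads, whose median ran from 0.90 to 1.69. None of the 37 fell in any of these settings.

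None of the single values that changed sign was called. For ALA against untreated, leaving out one library gave -0.12 to 0.55 for GNL3, -0.17 to 0.098 for MYC and -0.31 to 0.073 for POLR1A, and MYC was at 0.022 without number 1 and 0.021 with the block as well. For ConA+ALA against ConA, the same ranges were -0.73 to 0.20 for LYAR, -0.22 to 0.27 for NAT10 and -0.14 to 0.16 for NOB1. NAT10 was at -0.010 with no filter, -0.145 without number 2, -0.125 with the block as well, -0.018 without number 3, -0.0081 with the block as well, and -0.145 on total gene reads. NOB1 was at -0.0018 with no filter, -0.011 without number 2, -0.013 with the block as well, and -0.030 on total gene reads. For the difference between the ALA responses, ranges were -0.052 to 0.44 for NAT10 and -0.063 to 0.21 for RRS1. NAT10 was at -0.031 without number 2 and -0.0078 with the block as well, and RRS1 at -0.0087 and -0.014 without number 1. MYC intron reads gave -0.13 to 0.55 with one library left out. The cause of these changes was not tested.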
